A study of Homo sapiens with 2 samples.

Results

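The genes described here encode proteins that move, bind or sense zinc, and they were found in the tables by their symbols. They are the SLC30A family of zinc exporters (10 genes), the SLC39A family of zinc importers (14 genes), and a buffering group of 11 genes made up of the metallothioneins MT1A, MT1B, MT1E, MT1F, MT1G, MT1H, MT1M, MT1X, MT2A and MT3 with the metal-sensing transcription factor MTF1. All 35 had a row in the deposited tables, out of 47231 named genes, and 22 of them reached 1 RPKM in one library or both, the level at which a gene is called expressed here. RPKM scales reads by transcript length and by library total, so levels can be set beside each other between genes.

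C4-2B is an androgen-independent prostate cancer line, labelled as bone-metastatic and castration-resistant, and it models that disease as a single line. Both groups were the same line in its own medium. The vehicle group received DMSO, and the other group received MA4-022-1 at 2.5 µM, a compound labelled as an inhibitor of BET bromodomain proteins and kinases. Each group held 1 library of total RNA depleted of ribosomal RNA, the length of the exposure is not stated in the labels, and no difference below has a replicate check or a p-value. The study set out to find genes that castration-resistant tumours need to grow and that the compound affects.

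Zinc is a structural or catalytic part of very many proteins, and free zinc in the cytosol is kept low. SLC30A proteins lower cytosolic zinc by moving it out of the cell or into organelles, SLC39A proteins raise it by moving zinc in from outside or out of organelles, and metallothioneins are small cysteine-rich proteins that bind the excess. When zinc rises, MTF1 binds metal response elements in promoters and turns on metallothionein genes and the exporter gene SLC30A1. Normal prostate epithelium is known for storing unusual amounts of zinc, alongside citrate, and prostate tumours are known for losing that store.

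Low RPKM values moved in steps worth 1 read, which placed the normalising totals at 27136802 reads under vehicle and 19905865 under MA4-022-1. Read numbers given below come from those totals and the median annotated transcript length, and their 95% intervals cover counting error only. The 9 prostate luminal markers were all expressed in both libraries and within 2-fold of each other. KLK2 and KLK3 were read from 1 joint row. The basal markers KRT5, KRT14 and TP63 reached at most 0.362 RPKM under vehicle and 0.846 RPKM with MA4-022-1, and KRT5 was listed at 0 in both. Of 4 fibroblast markers, LUM was listed at 0 in both libraries, and the sum of the 4 was 1.91 against 5.37 RPKM, with COL1A1 at 1.19 against 5.03 RPKM and DCN at 0.713 against 0.319 RPKM. The endothelial markers summed to 0.149 and 0.291 RPKM, and the leukocyte markers PTPRC and CD3E to 0.0548 and 0.260 RPKM, while CD68 had no row of its own. The part of these cell types in the results was not tested. Since these are bulk samples, fewer cells with a transcript and less of it per cell cannot be told apart.

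Most zinc genes kept a similar level in the MA4-022-1 library, and the one beyond 2-fold was the metallothionein gene MT1F, which was lower. Each difference is the log2 of RPKM + 1 with MA4-022-1 divided by RPKM + 1 with vehicle, and a fold is on that scale unless it is called plain. Among the 22 expressed members, 21 lay within 2-fold, 1 was lower by 2-fold or more and 0 were higher by that much. Of 9836 expressed protein-coding genes, 4.12% were higher and 9.51% lower by 2-fold or more, or 13.6% in all. Over all 15431 expressed genes those shares were 7.72% and 9.58%, or 17.3% together. That larger set adds noncoding genes, joint rows such as that of SLC39A3, and symbols absent from the annotation used for gene types. With 22 members, 1 call is too coarse a share to set apart from that background. The median log2 ratio of the 22 was -0.22 and that of the protein-coding genes -0.10, and the median size of the ratio regardless of direction was 0.35 against 0.42. At 1.5-fold, 6 members were lower (MT1F, SLC30A1, SLC39A1, SLC39A3, SLC39A14 and SLC30A5) and 1 was higher (SLC30A4). At that threshold 21.9% of the protein-coding genes were lower and 13.2% higher, and over all expressed genes 20.7% were lower and 18.8% higher.

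**Figure D1:**
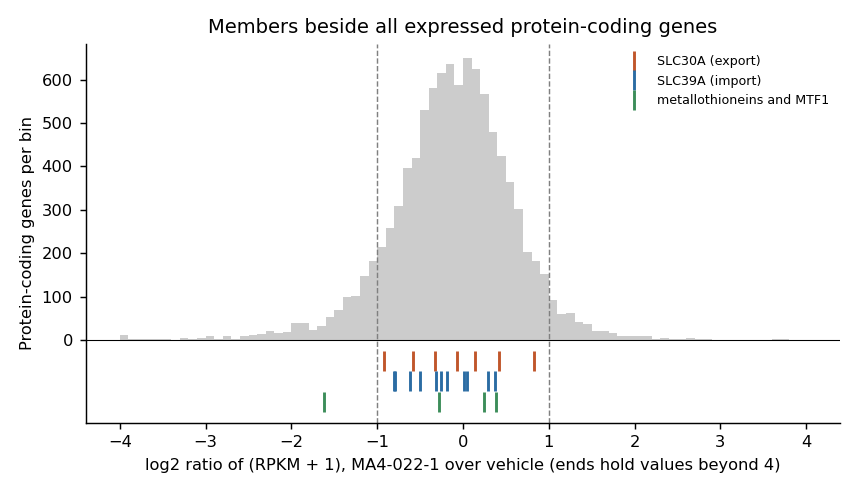
Histogram of the log2 ratio of RPKM + 1, MA4-022-1 over vehicle, for 9836 expressed protein-coding genes, with the 22 expressed zinc genes as ticks below it, coloured by group, and dashed lines at 2-fold. One tick, that of MT1F, lies beyond the dashed lines.

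Summed over each group, the RPKM of exporters was 354 in the vehicle library and 381 with MA4-022-1, that of importers 474 and 428, and that of the buffering group 122 and 120. Exporters made up 37.3% of the sum over all 35 genes in the vehicle library and 41.0% with MA4-022-1, importers 49.9% and 46.1%, and the buffering group 12.9% in both. The importer sums include the row that joins SLC39A3 with DIRAS1 and AC006538.4, at 51.1 against 29.05 RPKM, whose genes cannot be told apart. The highest member in the vehicle library was the exporter SLC30A5, followed by SLC30A4 and the importer SLC39A8. With MA4-022-1 the first 3 were SLC30A4, SLC39A8 and SLC30A5. The order rests on 1 library each, and the higher exporter sum rests on SLC30A4, whose value is uncertain, as set out below. The lower row of SLC30A4 alone, at 1.14 against 26.4 RPKM, has a gap nearly as large as that between the exporter sums.

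**Figure D2:**
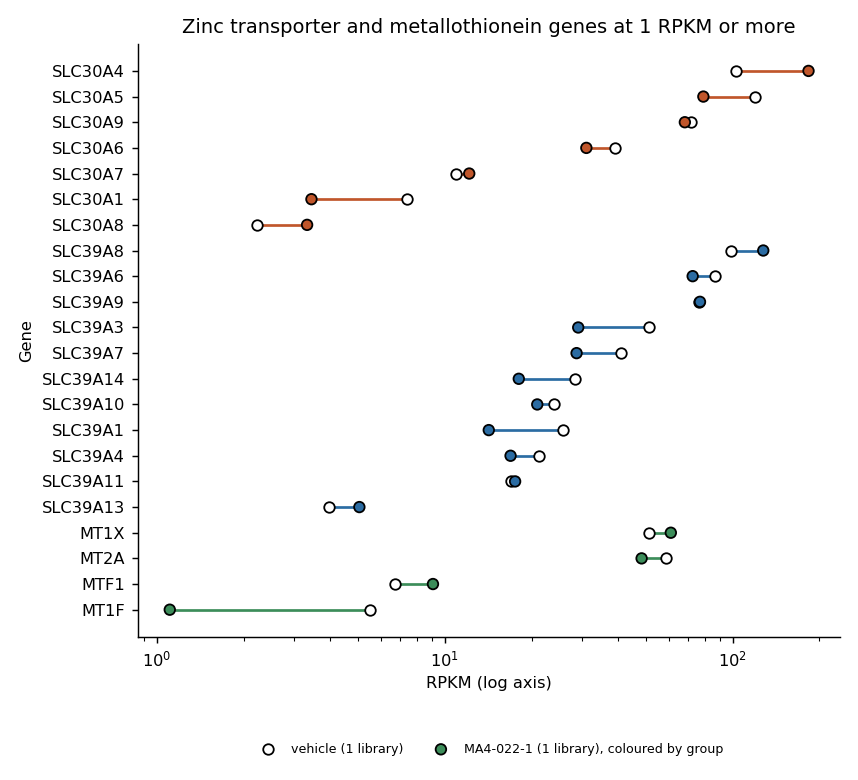
RPKM on a log axis for the 22 members at 1 RPKM or more in a library, 1 gene per line, with open points for the vehicle library and filled points, coloured by group, for the MA4-022-1 library. The widest gap is that of MT1F, at 5.50 against 1.11 RPKM.

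The metallothionein genes lie together on chromosome 16 (hg19, 56622986 to 56721719, a span of 98.7 kb). Of the 15 rows that the tables place there, 5 had a value above 0 in a library and 10 were listed at 0 in both. MT2A and MT1X carried nearly all of the metallothionein signal. MT2A, the most widely expressed human metallothionein, stood 1.21-fold lower, at 58.6 RPKM under vehicle and 48.2 with MA4-022-1 (56642111 to 56643409). MT1X, a member of the same cluster, stood at 51.1 and 60.9 RPKM, or 1.19-fold higher (56716336 to 56721719). The order of these genes therefore turned over: MT2A gave 50.7% of the metallothionein sum in the vehicle library and 43.4% with MA4-022-1, and MT1X 44.1% and 54.9%. On the plain ratio, the counting interval of the log2 value was -0.45 to -0.11 for MT2A and 0.06 to 0.45 for MT1X, so the intervals of these neighbours did not overlap, although the spread between cultures is not in them. The sum over all 10 metallothionein genes was 116 against 111 RPKM.

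MT1F stood at 5.50 RPKM under vehicle and 1.11 RPKM with MA4-022-1, a log2 ratio of -1.62 or 3.08-fold lower (chromosome 16, 56691606 to 56694610). It was the smallest contributor of the expressed metallothioneins, at 4.75% of their sum in the vehicle library and 0.997% with MA4-022-1. The values correspond to about 52 and 8 reads, and the plain log2 ratio of -2.31 had a counting interval of -3.54 to -1.17. With the shortest annotated transcript in place of the median length, the reads were about 17 and 3 and the interval widened to -4.47 to -0.27. The direction of MT1F thus held within counting error for both lengths, while its size was poorly fixed and rests on a handful of reads in the MA4-022-1 library. With a pseudocount of 5 RPKM its log2 ratio was -0.78, inside 2-fold.

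The metallothionein genes MT1A, MT1B, MT1E, MT1G, MT1H and MT1M, were listed at 0 in both libraries. An exact 0 in such a table can also be a failed estimate. MT3, best known from brain, was at 0.501 and 0.803 RPKM, below the filter, with about 5 reads in each library. These genes are close copies, so the share of 50-base stretches, the read length, that occur in no annotated transcript of another gene was counted in either orientation. It was 98.8% for MT1F, 97.0% for MT2A, 92.9% for MT1E, 90.1% for MT1M and 81.7% for MT1X, whose largest overlap was with AC026461.1. The lowest among those listed at 0 was 81.0% for MT1B. The stretches of all annotated transcripts of a gene were pooled, and most of each gene's pool matched no other gene exactly. Shares for single transcripts were not counted, and neither were near matches, so reads may be less distinct than these shares. Reads from the shared stretches could be split among copies. Of 10 metallothionein pseudogenes and relatives looked for, 8 had a row and 3 were at 1 RPKM or more in a library. MT1DP, which lies in the cluster, was at 4.25 RPKM under vehicle and MT2P1 at 1.55, and both were listed at 0 with MA4-022-1. Read numbers were not estimated for these pseudogenes. MT1DP is very short, with 142 stretches of 50 bases in all, so its RPKM is uncertain. MT1P1 was at 0.931 and 1.27 RPKM.

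**Figure D3:**
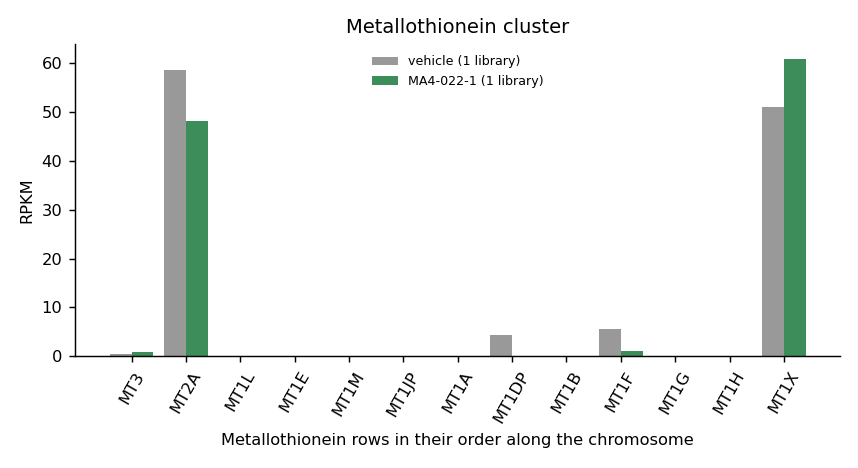
RPKM of the metallothionein rows of the chromosome 16 cluster in their order along the chromosome, grey bars for the vehicle library and green bars for the MA4-022-1 library. MT2A and MT1X tower over the rest, MT1F and MT1DP are the small bars that are lower with MA4-022-1, and most rows are at 0.

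The promoters below show where the core of the metal response element, the site that MTF1 binds, occurs in genes of this set that were expressed (MT2A, MT1X, SLC30A1) and in one that was listed at 0 (MT1H). They run from 250 bases before to 50 bases after the annotated start on GRCh38.p14, from RefSeq, which is another build than that of the deposited loci. Capitals mark matches to TGCACNC or TGCGCNC on either strand. In order, the windows are chr16:56608334-56608633 (plus strand), chr16:56682220-56682519 (plus), chr1:211579112-211579411 (minus) and chr16:56669564-56669863 (plus), each written 5′ to 3′ along its gene.
MT2A: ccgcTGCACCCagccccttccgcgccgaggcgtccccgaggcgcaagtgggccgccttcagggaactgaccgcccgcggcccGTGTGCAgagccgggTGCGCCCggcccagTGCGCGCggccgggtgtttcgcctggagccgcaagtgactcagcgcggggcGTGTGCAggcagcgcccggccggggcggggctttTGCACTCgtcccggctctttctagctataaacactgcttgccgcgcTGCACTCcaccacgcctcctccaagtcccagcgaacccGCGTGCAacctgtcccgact
MT1X: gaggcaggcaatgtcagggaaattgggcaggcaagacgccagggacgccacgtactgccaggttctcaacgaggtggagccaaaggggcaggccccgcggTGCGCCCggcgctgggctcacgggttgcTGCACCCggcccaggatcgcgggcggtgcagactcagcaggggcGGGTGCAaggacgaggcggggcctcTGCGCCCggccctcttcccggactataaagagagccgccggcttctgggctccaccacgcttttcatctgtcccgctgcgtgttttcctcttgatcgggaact
SLC30A1: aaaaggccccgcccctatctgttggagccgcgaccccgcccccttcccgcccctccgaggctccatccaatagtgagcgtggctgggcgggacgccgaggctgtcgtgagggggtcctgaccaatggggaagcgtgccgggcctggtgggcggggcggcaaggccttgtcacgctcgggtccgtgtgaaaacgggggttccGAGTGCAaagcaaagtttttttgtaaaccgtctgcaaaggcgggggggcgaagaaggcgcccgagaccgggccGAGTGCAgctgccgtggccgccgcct
MT1H: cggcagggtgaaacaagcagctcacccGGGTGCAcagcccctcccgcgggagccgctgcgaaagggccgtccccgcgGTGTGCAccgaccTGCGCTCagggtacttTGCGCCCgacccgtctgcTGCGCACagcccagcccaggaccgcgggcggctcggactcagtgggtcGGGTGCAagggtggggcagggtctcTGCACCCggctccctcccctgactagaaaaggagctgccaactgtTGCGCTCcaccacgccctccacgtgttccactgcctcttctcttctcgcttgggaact

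MT2A and MT1H held 8 matches each, MT1X 4, and SLC30A1 2, both on the reverse strand. Of 35116 RefSeq promoter windows of 300 bases, 29.6% held at least 1 match, 8.60% at least 2, 0.601% at least 4 and 0.0199% at least 8. MT2A and MT1H thus had the same number of matches, while the first was among the 10 highest members in both libraries and the second was listed at 0. MT1B, also listed at 0, had 3 matches, fewer than MT1X. A promoter was found for 26 of the 35 members, and MT1F was not among them. Among 21 transporter genes with one, 12 had a match in at least 1 of their windows, and none had more than 3. Some of these genes have several windows, so that count cannot be set beside the shares of single windows above. A match to these letters is a description of the sequence and not a bound site.

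MTF1 itself stood at 6.73 RPKM under vehicle and 9.09 with MA4-022-1, or 1.30-fold higher (chromosome 1, 38279685 to 38325292), at about 729 and 722 reads. Its counting interval on the plain log2 ratio was 0.28 to 0.58. With the shortest annotated transcript the reads were about 39 and 38 and the interval was -0.27 to 1.09. Whether the interval includes 0 thus depends on the transcript length assumed, while the ratio itself does not. Of the genes that MTF1 is known to drive, SLC30A1, MT1F and MT2A were lower and MT1X was higher.

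SLC30A1, the exporter at the cell surface and the one best known as a target of MTF1, had the lowest ratio among the exporters. It stood at 7.40 RPKM under vehicle and 3.44 with MA4-022-1, a log2 ratio of -0.92 or 1.89-fold lower (chromosome 1, 211744910 to 211752084). On the plain scale it was 2.15-fold lower, and the log2 interval was -1.28 to -0.93 from about 1059 and 361 reads. None of its 50-base stretches was found in a transcript of another gene. Whether it counts as beyond 2-fold depends on the setting: with a pseudocount of 0.1 RPKM in place of 1 its log2 ratio was -1.08, and with the summed RPKM of expressed genes set equal it was -1.01.

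Exporters of the secretory pathway were mostly lower or close to the vehicle level. SLC30A5 and SLC30A6, which pair to load zinc into enzymes in the early secretory pathway, were both lower. SLC30A5 stood at 119 against 79.0 RPKM, or 1.501-fold lower, and SLC30A6 at 39.1 against 31 RPKM, or 1.25-fold lower. Their counting intervals on the plain log2 scale, -0.71 to -0.48 and -0.43 to -0.24, both lay below 0 and did not overlap each other. With the shortest annotated transcripts they were -0.80 to -0.38 and -0.57 to -0.09, still below 0, but they overlapped. SLC30A7, which acts in the Golgi, stood at 10.96 against 12.1 RPKM, and SLC30A9, which is needed for zinc export from mitochondria, at 71.7 against 68.2 RPKM. The intervals of both these genes included 0. The median log2 ratio of the 7 expressed exporters was -0.07, with 3 above 0 and 4 below.

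SLC30A4, which moves zinc into endosomal vesicles, was the member with the highest ratio. Its symbol had 2 rows at 1 shared locus (chromosome 15, 45722727 to 45983492). The higher row stood at 101.7 RPKM under vehicle and 156.9 with MA4-022-1, or 1.54-fold higher, and the lower row at 1.14 and 26.4 RPKM. Their sum was 103 against 183 RPKM, a log2 ratio of 0.83 or 1.77-fold higher, and without the lower row the log2 ratio was 0.62. Most other rows at that locus with 1 RPKM or more in a library were also higher with MA4-022-1. SNORA41, a small nucleolar RNA, stood at 5.53 against 52.8 RPKM, and the pseudogene HMGN2P46 at 98.5 against 157.7 RPKM, close to SLC30A4 in both libraries. The rows of RP11-519G16.3 stood at 3.74 against 10.9, 20.4 against 91.5 and 3.12 against 10.05 RPKM, and RP11-96O20.2 at 1.12 against 1.97 RPKM. The joint row of BLOC1S6, C15orf48 and SQRDL stood at 278 against 289 RPKM. Only RP11-519G16.4 was lower, at 2.45 against 1.67 RPKM. The strand of the rows is not stated, and reads of overlapping features cannot be told apart here, so the value of SLC30A4 is uncertain.

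The exporters of specialised secretory cells were low. SLC30A8, known from insulin granules, stood at 2.22 against 3.32 RPKM, and about 38 and 41 reads gave an interval that included 0. SLC30A2, of secretory vesicles in the mammary gland, was at 0.305 and 0.277 RPKM, and SLC30A3, of synaptic vesicles, at 0.0718 and 0.0464 RPKM. SLC30A10, which exports mainly manganese, was at 0.224 RPKM under vehicle and listed at 0 with MA4-022-1.

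**Figure D4:**
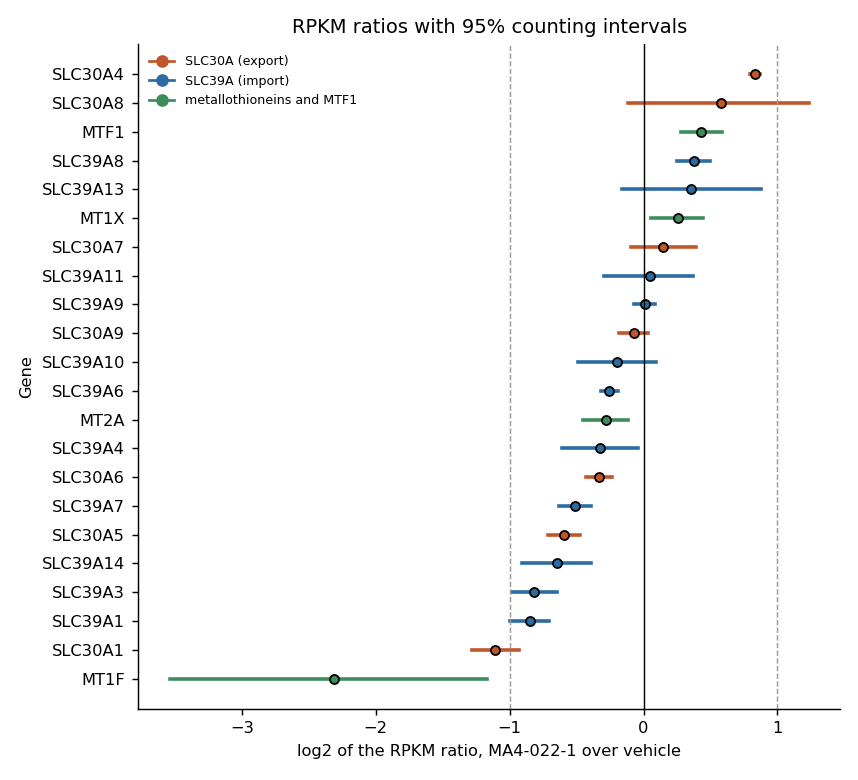
Plain log2 ratio of RPKM, MA4-022-1 over vehicle, for the 22 expressed members in order, with lines for the 95% counting interval and dashed lines at 2-fold. The interval lies below 0 for 11 genes, above 0 for 4 and includes 0 for 7, and it does not hold the spread between cultures.

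The lowest ratios among the importers were those of SLC39A1 and of the row that holds SLC39A3. SLC39A1, a broadly expressed importer known for being low in prostate cancer tissue, stood 1.75-fold lower, at 25.6 against 14.2 RPKM (chromosome 1, 153931575 to 153950545). About 1309 and 532 reads lay behind these values, and the upper end of its plain log2 interval was -0.71. It shares its locus with CREB3L4, at 80.9 against 20.1 RPKM, and JTB, at 344 against 229 RPKM, which were 3.89-fold and 1.499-fold lower. Of its 50-base stretches 39.7% were found in no other gene, the lowest share in the set, and the largest overlap, 55.2%, was with AL358472.7. SLC39A3, its close relative, had a value only in a row joined with DIRAS1 and AC006538.4, which stood at 51.1 against 29.05 RPKM, or 1.73-fold lower, and the genes in that row cannot be told apart. SLC39A2, the other near relative, was listed at 0 in the vehicle library and was at 0.416 RPKM with MA4-022-1.

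SLC39A14 and SLC39A8, which carry zinc as well as manganese and, for SLC39A14, iron, went apart. SLC39A14 stood at 28.3 against 18.1 RPKM, or 1.54-fold lower, with a plain log2 interval of -0.91 to -0.39. SLC39A8 was the highest importer in both libraries, at 98.5 against 127.6 RPKM, or 1.29-fold higher, with an interval of 0.25 to 0.50 (chromosome 4, 103172198 to 103371167). It made up 20.8% of the importer sum in the vehicle library and 29.8% with MA4-022-1. The intervals of these relatives lay on opposite sides of 0.

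The remaining importers lay within 1.5-fold of the vehicle level. SLC39A6, first known as the oestrogen-regulated gene LIV-1, and SLC39A10, which forms a complex with it, were 1.19-fold and 1.14-fold lower, at 86.6 against 72.6 and 24.0 against 20.9 RPKM. SLC39A7, which releases zinc from the endoplasmic reticulum, stood at 40.9 against 28.7 RPKM, or 1.41-fold lower, with a plain log2 interval of -0.63 to -0.40. Its 5 further rows on alternative haplotypes were listed at 0. The gene shares its locus with RXRB, which was higher, at 5.77 against 11.8 RPKM. SLC39A4, the intestinal importer mutated in acrodermatitis enteropathica, stood at 21.2 against 16.9 RPKM, and its plain log2 interval of -0.61 to -0.04 included 0 with the shortest annotated transcript. SLC39A9, a protein of the secretory pathway, was at 76.5 and 76.9 RPKM, and SLC39A11 at 17.0 and 17.5 RPKM. The values of SLC39A9 and SLC39A11 were the nearest to equal among the 22 expressed members. SLC39A9 shares its locus with ERH, at 463 against 391 RPKM. SLC39A13, of the early secretory pathway in connective tissue cells, stood at 3.95 against 5.04 RPKM. SLC39A5 was at 0.109 and 0.297 RPKM, and SLC39A12, known from brain, was listed at 0 in both libraries. Of the 11 expressed importers, 7 were below 0 and 4 above, and the median log2 ratio was -0.25.

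Other metal handling genes were taken from lists drawn up by function, and their counts are set beside the 13.6% of protein-coding genes beyond 2-fold. With 10 to 13 expressed genes a list, 0 or 1 call is too coarse a share to set apart from it. Of 10 expressed genes in the list of other zinc handling, none passed 2-fold and the median log2 ratio was 0.23. SOD1, a copper and zinc enzyme, was at 303 against 403 RPKM. The zinc chaperone genes CBWD3 and CBWD6, near-identical copies whose reads could be split, were 1.28-fold and 1.24-fold higher. Among 10 expressed genes of copper handling, also none passed 2-fold, and the median was -0.16. SCO1, a chaperone of cytochrome oxidase, stood at 58.0 against 30.1 RPKM, or 1.90-fold lower. The copper exporter ATP7A stood at 54.1 against 30.4 RPKM, or 1.75-fold lower. CCS, which loads SOD1 with copper, was 1.74-fold higher at 22.1 against 39.1 RPKM, and the metalloreductase STEAP2 1.75-fold higher at 239.5 against 419 RPKM.

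In the list of iron handling, 1 of 13 expressed genes was lower by 2-fold or more, none was higher by that much, and the median of -0.00072 was at 0. The lower gene was HMOX1, which breaks down haem, at 11.2 against 4.97 RPKM. The ferritin chains that store iron were higher, with FTH1 at 708 against 1416 RPKM, a fold of 2.00 that falls just short of the threshold, and FTL at 243 against 403 RPKM. SLC25A28, which brings iron into mitochondria, was 1.53-fold lower. HMOX1 is also in the list of genes linked to MTF1 or to oxidative stress, where it was the 1 of 10 expressed genes beyond 2-fold. That list had a median of -0.28. TXN, thioredoxin, was 1.53-fold lower and GCLM, a subunit of the enzyme that limits glutathione synthesis, 1.46-fold lower, while the heat shock gene HSPA1B, one of a near-identical pair, was 1.35-fold higher. The housekeeping genes had a median of -0.12 over 12 genes, and B2M, at 883 against 1853 RPKM, was the 1 beyond 2-fold.

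**Figure D5:**
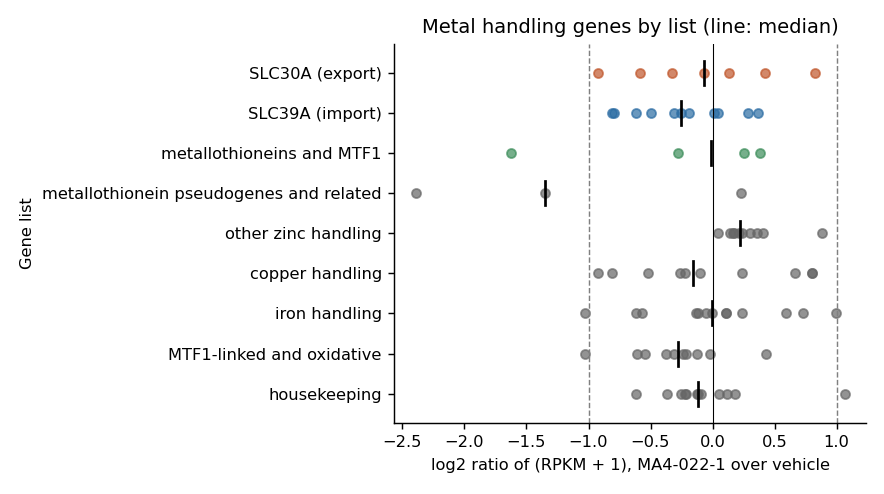
Log2 ratio of RPKM + 1, MA4-022-1 over vehicle, for each expressed gene of the 3 zinc groups, the metal handling and MTF1-linked lists and the housekeeping genes, with a black line at each list's median and dashed lines at 2-fold. The zinc groups centre between -0.25 and -0.01, and the points beyond the dashed lines are MT1F, 2 metallothionein pseudogenes listed at 0 with MA4-022-1, HMOX1 in both its lists, and B2M.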

How the data were processed

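RNA of 2 libraries, 1 per group, was compared. The authors deposited RPKM per gene, with its locus and symbol, in a table for each library. The build hg19 and the tools TopHat2 2.0.13 and Cufflinks 2.2.1 are named per the submitters' processing notes, and the annotation is not stated there. Both tables listed the same 62271 rows. The 2751 rows without a symbol and short RNA symbols were left out of the gene counts. Rows of 1 symbol were summed, and rows that join several symbols stayed joint and are named where used. The tables' locus starts count from 0, since the span equalled the annotated length for 814 of 1021 pseudogene loci and fell 1 short for 2, so printed starts are 1 higher.

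RPKM values are not counts and each group is 1 library, so no count model and no test was run. The filter was 1 RPKM in either library, and calls were made at 2-fold in RPKM + 1. Totals were fitted to processed pseudogenes of 600 to 6000 nt: 219 of 237 vehicle values of up to 5 reads (92.4%) and 175 of 192 MA4-022-1 values (91.1%) lay within 2% of a whole step, at effective lengths 201 nt shorter than the transcript. Ratio intervals are exact conditional binomial (Clopper-Pearson) ones. Transcript lengths, gene types and 50-base stretches came from GENCODE release 29, another build, without its coordinates. Every member is accounted for, those that passed the filter are named with both values, and at most 4 genes per companion list are named, by size of ratio; COL1A1, B2M and genes at the loci of members were named after their values were seen. Some genes that this rule names are left out of the text. The members and lists were chosen with earlier results of these data known. Other pseudocounts, scalings, filters, thresholds and rules for rows were tried as alternatives. The calls, the depth fit and the intervals were tested on simulated data. Python 3.11.15, numpy 2.4.6, pandas 2.3.3, scipy 1.17.1 and matplotlib 3.10.9 were used.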

Additional observations from a re-analysis of the deposited data

How the results depend on the processing

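The count of members at least 2-fold lower, 1 with the settings of the report, was 2 with a pseudocount of 0.1 RPKM or with the summed RPKM of expressed genes set equal (MT1F and SLC30A1 in both) and 0 with a pseudocount of 5 RPKM. With a threshold of 1.5-fold it was 6, and the count of higher members was 1 in place of 0. The other filters, the other scalings, the 3-fold threshold, symbols of a single row, joined rows left out, and SLC30A4 from its higher row alone, which was chosen after seeing the data, left 0 higher and 1 lower, MT1F each time. Equal sums lowered the MA4-022-1 values by 0.12 on the log2 scale before the pseudocount was added, so low genes moved by less. Of the 22 expressed members, 20 kept the sign of their ratio under every setting that gave them a value, and SLC39A9 and SLC39A11, both near 0, turned to -0.11 and -0.07 under that scaling. The ratio of SLC30A1 ranged from -1.08 to -0.56, that of MT1F from -2.21 to -0.78 and that of SLC30A4 from 0.62 to 0.88. The median ranged from -0.20 to -0.02 for exporters, from -0.37 to -0.19 for importers and from -0.13 to 0.25 for the buffering group, whose sign is therefore not fixed. No paired analysis was possible because each group held 1 library, and none could be left out. Depth limits MT1F, SLC30A8 and SLC39A13, with under 100 estimated reads in both libraries at the median transcript length, and at the shortest length also MTF1, SLC39A4, SLC39A10 and SLC39A11.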
